A study of Mus musculus with 36 samples.

Results

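Small structural noncoding RNAs are transcripts that act as RNA inside a particle rather than as a message. The set described here was chosen by biotype and count: genes annotated in the deposited files as ribozyme, snRNA, scaRNA, misc_RNA or snoRNA with 10 or more counts in at least 3 of the 36 libraries, leaving out Rn7sk. It held 277 of the 3565 listed genes of these biotypes, of 46078 genes in all. There were 3 of 22 ribozymes, 77 of 1386 small nuclear RNAs (snRNAs), 12 of 51 Cajal body RNAs (scaRNAs), 150 of 1537 small nucleolar RNAs (snoRNAs) and 35 of 569 genes of the mixed class misc_RNA. Measured counts chose the members, so a member that entered through 1 group only, the group where it is high, had to differ from the others. Counts of members that differed are therefore given as a description beside the same share over all genes. At the threshold, the 24 genes with 10 counts in exactly 3 libraries had a median summed count of 126.5, and the 27 genes just outside, with exactly 2 such libraries, 138. In all 36 libraries 46 members reached 10 counts, and 91 did so in at least 1 library of every group.

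The 36 libraries came from 2 mouse cell lines in 12 groups of 3. RM-1-BM is a prostate cancer line, transduced here with the F133V mutant of SPOP, a substrate adaptor of a ubiquitin ligase, or with an empty vector. It was grown opposite RAW264.7 macrophages in a transwell, where both cell types share medium, or alone, and was treated with the PARP inhibitor olaparib or with DMSO as vehicle. The cancer groups were thus F133V and vector cells, each in coculture and monoculture, each with olaparib and DMSO. The macrophage groups were RAW264.7 cells with an F133V or a vector partner, each with olaparib and DMSO, and all of them were cocultured. Both cancer lines had been transduced. The genotype entries of the macrophage labels conflict, naming the mutant for F133V-partner libraries with DMSO and wild type for those with olaparib. The titles of the 3 vector-partner macrophage libraries with olaparib leave out the partner, which their group entry gives. The labels give neither the dose and time of olaparib nor whether each line is 1 clone or a pool. They leave unsaid if the 3 libraries of a group are separate cultures, so p-values measure the spread between these libraries, which may be technical. Total RNA was extracted, and the design text speaks of mRNA profiles. Whether polyadenylated RNA was selected is not given, which bears on these RNAs, since most of them carry no poly(A) tail.

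RNase P and RNase MRP cut precursors of tRNA and rRNA, and each is built around 1 RNA. The U snRNAs form the spliceosome. Box C/D snoRNAs guide methylation and box H/ACA snoRNAs guide pseudouridylation of rRNA, and scaRNAs do the same for snRNAs in Cajal bodies. In mammals most snoRNAs are cut out of introns of host genes, whereas RNase P RNA, U6 and vault RNA are made by RNA polymerase III from promoters of their own. Members are small and their uniquely aligned reads few, so each level below is a low count. Gene counts ran from 30292309 to 43062440 per library (median 36623719). Levels are given as CPM, counts scaled to the library's total gene counts, with mean ± SD of 3 libraries where a mean is shown. In bulk RNA, fewer cells of a kind and less RNA per cell cannot be told apart. Log2 fold changes ± SE come from edgeR's quasi-likelihood test on all genes with TMM scaling, and a gene was called where the Benjamini-Hochberg adjusted p was under 0.05. Of the 277 members, 244 entered the fit of cancer cells among 15962 genes and 159 entered that of macrophages among 14262.

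The cell labels matched their markers. The 12 macrophage markers were all detected in every macrophage library and summed to at least 11830 CPM there, against 10.8 to 23.7 CPM in cancer libraries. Epithelial markers summed to at least 67.5 CPM in cancer libraries, and 1 to 3 of the 8 were detected in macrophages. Other RNAs, chosen as context because they are known to lack a poly(A) tail or to carry rRNA sequence, moved beside the members. Rn7sk, which holds the elongation factor P-TEFb inactive, stood at 186 ± 0.653 CPM in F133V and 9.49 ± 0.714 CPM in vector monoculture with DMSO, and the noncoding RNA Gm26917 at 38354 ± 756 and 1999 ± 13.8 CPM. The mitochondrial rRNA mt-Rnr2 stood at 4157 ± 93.5 CPM in F133V and 1048 ± 96.3 CPM in vector monoculture. In F133V coculture with olaparib, Rn7sk stood at 30.8 ± 1.51 CPM, Gm26917 at 4871 ± 65.4 and mt-Rnr2 at 1220 ± 28.9, against 229 ± 10.1, 35568 ± 919 and 4299 ± 181 CPM with DMSO. Their part in the differences of the members below was not tested, nor was how much RNA of this kind each library kept.

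The comparison of F133V with vector cells asks what differs between cancer cells with and without the SPOP mutant. In monoculture with DMSO, summed ribozyme members stood at 69.5 CPM in F133V and 6.79 CPM in vector cells, a ratio of 10.2 ± 0.712. The ratio was 2.96 ± 0.71 for snRNA members (53.0 and 17.9 CPM) and 2.10 ± 0.125 for scaRNA members (16.3 and 7.76 CPM). For misc_RNA members it was 1.32 ± 0.077. In none of these 4 classes did the libraries of the groups overlap. Summed snoRNA members stood at 119 ± 3.58 CPM in F133V and 118 ± 2.17 CPM in vector cells, and these ranges overlapped. Without Rpph1, all other members summed to 212 CPM in F133V and 160 CPM in vector cells, a ratio of 1.32 ± 0.094. Among members with 10 or more counts in every cancer library the misc_RNA ratio was 0.827, so the direction for that class turned when members low in any cancer library were left out.

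**Figure D1:**
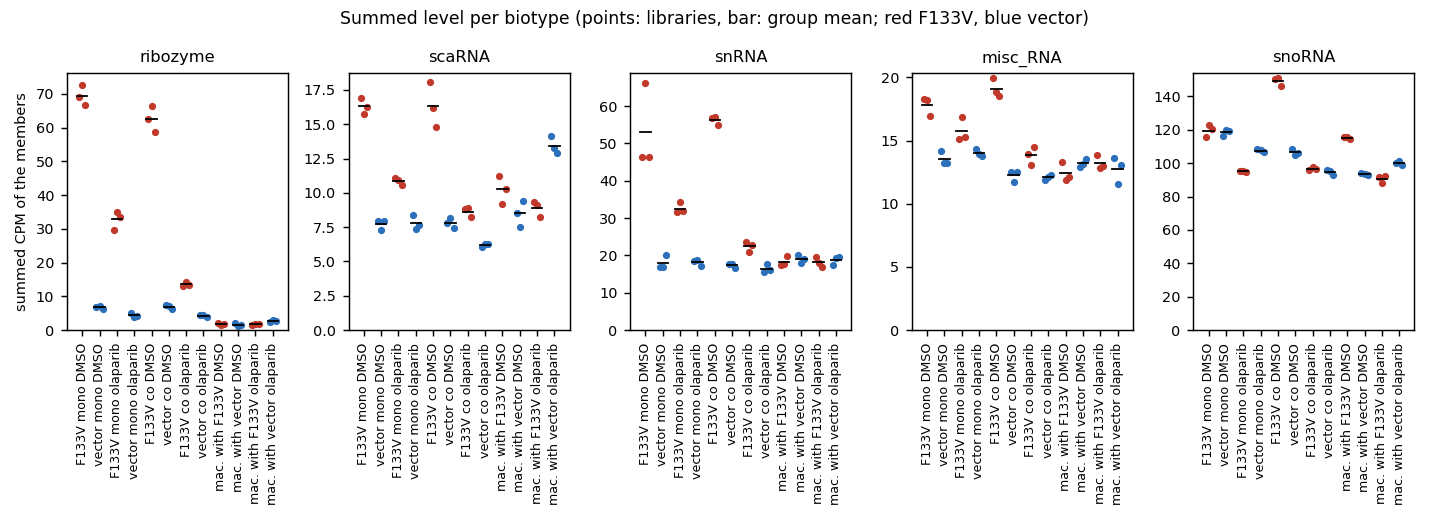
Summed CPM of the members of each biotype (vertical axis, from 0) in the 12 groups (horizontal axis), with 1 point per library and a bar at the mean, F133V in red and vector in blue. Ribozymes in F133V monoculture with DMSO averaged 69.5 CPM against 6.79 CPM in vector monoculture, whereas snoRNAs averaged 119 and 118 CPM.

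Of the 244 members tested in that comparison 77 were called higher and 20 lower in F133V cells, where 33.7% and 34% of all genes were called in these directions. The share called higher was near that of all genes, and the share called lower was below it. The median log2 fold change was 0.25 for the members and 0.001 for all genes. By DESeq2, for which no share of all genes is given, 84 members were called, against 97 by edgeR (67.7% of all genes). In the 91 members with 10 counts in a library of every group, 20 were called higher and 9 lower (median 0.17). Of the 277 members 54 reached 10 counts in F133V but in no vector library, 35 of them snRNAs and 32 outside other genes, and 12 did so in vector but in no F133V library. The choice of members thus favoured higher calls, and classes and positions are set side by side over the 91 only, a restriction made after seeing the data. Of 65 snoRNAs among them 11 were called higher and 7 lower (median 0.12), of 10 snRNAs 2 and 1 (median 0.17), of 7 misc_RNA genes 1 and 1, of 7 scaRNAs 4 and 0 (median 0.74), and both ribozymes were higher. By position, 3 of 15 outside other genes were higher and 0 lower (median 0.25), and 12 of 51 in an intron of a same-strand gene were higher and 4 lower (median 0.15). In the same comparison 7 of 8 tested macrophage markers were lower in F133V cells (median -1.07). Lyz2, a macrophage lysozyme, had 0.826, 0.636 and 0.958 CPM in F133V and 3.57, 4.60 and 0.738 CPM in vector monoculture. Without the 2 vector libraries of highest Lyz2, 67 members were higher and 15 lower, with no share of all genes given for that fit. The lines also differed in Krt8, an epithelial keratin, at 0.348 CPM in F133V and 24.2 CPM in vector cells, and in Fn1, fibronectin, at 2133 and 8542 CPM. The part of these differences in the members' values was not tested.

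Rpph1 is the RNA of RNase P, which trims the 5′ end of precursor tRNA. It lies on chromosome 14 (50807449 to 50807767, minus strand, GRCm38), back to back with Parp2, a PARP enzyme that olaparib inhibits, and its annotation overlaps an exon of Ccnb1ip1 on the same strand. Its first 300 bases are shown because it had the highest CPM of all members in F133V monoculture with DMSO, and capitals mark the 102 bases that fall inside the RefSeq promoter window of Parp2.
Rpph1: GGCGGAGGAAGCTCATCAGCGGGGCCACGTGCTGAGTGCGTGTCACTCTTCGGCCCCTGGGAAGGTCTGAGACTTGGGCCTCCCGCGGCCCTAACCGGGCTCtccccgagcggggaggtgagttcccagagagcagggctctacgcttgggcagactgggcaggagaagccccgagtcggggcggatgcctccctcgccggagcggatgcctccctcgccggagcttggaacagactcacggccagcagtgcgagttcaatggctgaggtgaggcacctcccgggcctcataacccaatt
Rmrp is the RNA of RNase MRP, which cuts precursor rRNA. It lies on chromosome 4 (43492788 to 43493058, minus strand), over an exon of Ccdc107 on the opposite strand, and is shown as the related ribozyme.
Rmrp: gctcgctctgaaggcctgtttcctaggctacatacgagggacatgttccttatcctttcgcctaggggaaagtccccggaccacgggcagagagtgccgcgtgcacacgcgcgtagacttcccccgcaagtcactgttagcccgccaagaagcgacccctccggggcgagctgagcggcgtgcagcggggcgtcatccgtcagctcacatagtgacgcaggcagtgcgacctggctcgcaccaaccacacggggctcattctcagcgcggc
Rpph1 shares its strand with the exon it overlaps, so counting by strand would not separate their reads. Rmrp lies opposite its exon, and whether the authors' counting used strand is not stated. How many reads of either RNA came from these exons, or were left out as ambiguous between genes, is not known.

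Rpph1 had 64.1, 66.6 and 61.6 CPM in F133V monoculture with DMSO, against 4.37, 4.63 and 4.07 CPM in vector monoculture (log2 fold change 3.97 ± 0.07, adjusted p = 1.68e-34). In coculture with DMSO it had 55.4, 61.0 and 53.2 CPM in F133V cells, against 4.82, 4.85 and 3.79 CPM in vector cells (3.90 ± 0.07, adjusted p = 1.2e-34). Every F133V library stood far above every vector library, and Rpph1 alone made up most of the ribozyme total. Per kilobase it averaged 69.5 CPM over the 24 cancer libraries and 2.78 CPM over the 12 macrophage libraries. Rmrp had 4.63, 5.47 and 4.70 CPM in F133V monoculture with DMSO, against 1.92, 2.14 and 1.75 CPM in vector monoculture (1.44 ± 0.15, adjusted p = 9.1e-11). Under DMSO in coculture it had 6.25, 4.57 and 4.19 CPM in F133V cells, against 1.94, 2.01 and 2.07 CPM in vector cells (1.58 ± 0.15, adjusted p = 3.03e-12). Both RNAs were higher in F133V cells with no overlap, and the log2 difference was larger for Rpph1. The third member annotated as a ribozyme, Gm25694, in an intron of Syne1 and 71.2% identical to Rpph1, had 14, 17 and 16 counts in F133V monoculture and 20, 15 and 21 in vector monoculture with DMSO, and these overlap.

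Rpph1 and Rmrp each have a protein-coding neighbour on the other strand. Parp2 had 16.6 CPM in F133V and 15.1 CPM in vector monoculture with DMSO, a log2 fold change of 0.22 (adjusted p = 0.00199). Under DMSO in coculture its log2 fold change was -0.33. Ccdc107 stood at -0.28 in monoculture and -1.66 in coculture. The promoter windows of both neighbours hold letters known from upstream promoters of RNA polymerase III, the octamer and the proximal sequence element. The windows, 250 bases before to 50 after the RefSeq start of the protein-coding neighbour (GRCm38.p6), are shown because these upstream letters lie in them. Capitals mark the octamer (ATGCAAAT or its complement ATTTGCAT) and the letters CACCNTNA or their complement, searched on both strands.
Parp2 window, chr14:50807666-50807965, plus strand: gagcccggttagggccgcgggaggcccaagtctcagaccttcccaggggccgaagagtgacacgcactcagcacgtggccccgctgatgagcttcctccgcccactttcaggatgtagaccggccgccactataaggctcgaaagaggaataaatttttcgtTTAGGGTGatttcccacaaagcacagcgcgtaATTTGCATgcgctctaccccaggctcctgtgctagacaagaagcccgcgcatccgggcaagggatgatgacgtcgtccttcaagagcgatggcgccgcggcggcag
Ccdc107 window, chr4:43493115-43493414, plus strand: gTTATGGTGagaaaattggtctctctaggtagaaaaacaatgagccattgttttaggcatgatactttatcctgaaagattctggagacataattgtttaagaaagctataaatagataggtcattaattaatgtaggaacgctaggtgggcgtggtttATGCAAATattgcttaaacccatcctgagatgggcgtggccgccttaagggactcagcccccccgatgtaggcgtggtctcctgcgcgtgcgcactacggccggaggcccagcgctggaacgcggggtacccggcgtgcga
The octamer lay 93 bases and CACCNTNA 61 bases from the start of Rpph1, and 216 and 58 bases from that of Rmrp. Of all 32851 windows of this length, 1.74% held the octamer and 12.2% the letters CACCNTNA. TATAAA, present in 13.6% of windows, was in the Ccdc107 window and not in the Parp2 window. Its distance from Rmrp was not measured, and the bases between the start of Rmrp and the Ccdc107 window were not searched. A match is a description of letters, not of a binding site.

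U6 is the snRNA at the catalytic centre of the spliceosome, and the mouse genome carries many copies and decayed relatives of it. Of the 77 snRNA members, 41 were relatives of U6, 7 of U1, 3 of U2 and 1 was U11. Reads that fit several copies equally well were not counted, so a count on 1 copy of a multicopy RNA is uncertain. Sums over copies lack these reads as well, and 1 gene can make up much of a sum.

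Summed over all listed relatives, members or not, the ratio between genotypes was larger at 95% identity to Rnu6 or more than below it. Identical copies had a larger ratio than the next class in monoculture and a smaller one in coculture. The 43 genes identical to Rnu6 summed to 19.6, 18.9 and 8.97 CPM in F133V monoculture with DMSO, against 0.879, 0.483 and 0.574 CPM in vector monoculture, a ratio of 24.5 ± 12.2 (SD). The 140 genes of 95% to under 100% identity summed to 27.7 ± 5.54 CPM in F133V and 1.96 ± 0.106 CPM in vector monoculture, a ratio of 14.1. At 85% to under 95% identity the sums were 10.1 ± 1.89 and 3.13 ± 0.577 CPM, a ratio of 3.24. At 65% to under 85% they were 5.70 ± 0.67 CPM in F133V and 6.88 ± 1.82 CPM in vector cells, and these ranges overlap. Under DMSO in coculture the ratios in the same order were 11.3, 13.5, 2.90 and 0.885. In 4 identical copies 1 library held 80% or more of the counts of a group that summed to 30 or more. Without these 4, an alternative chosen after seeing the data, the first ratio was 18.1 ± 11.8 in monoculture and 8.01 ± 2.26 in coculture.

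**Figure D2:**
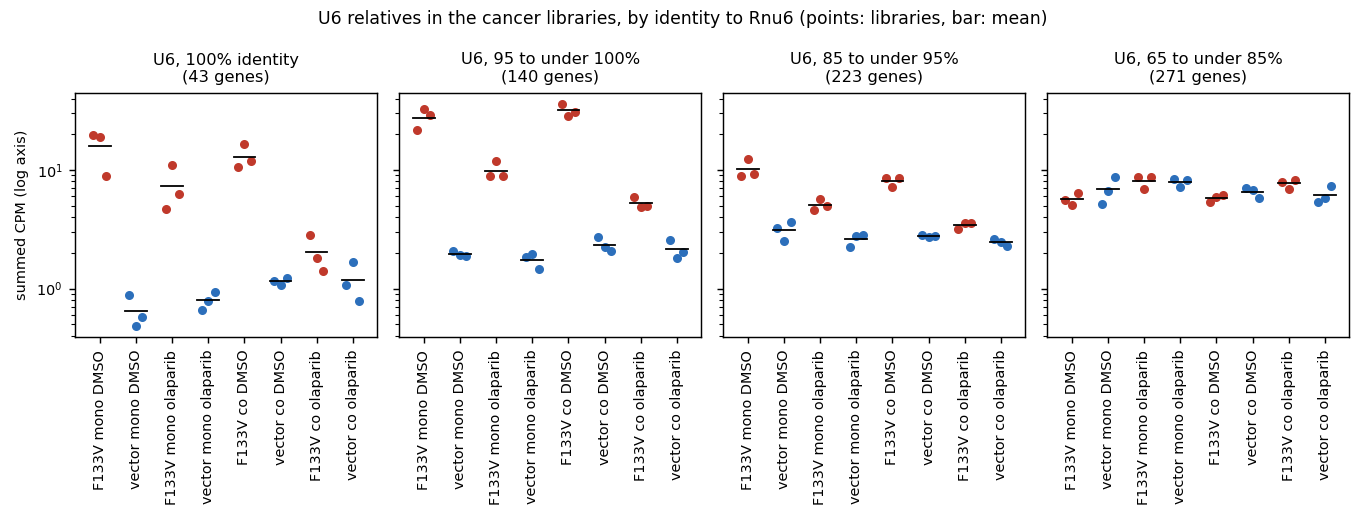
Summed CPM of all listed U6 relatives (vertical axis, log scale) in the 8 cancer groups (horizontal axis), in 4 panels by identity to Rnu6, with 1 point per library and a bar at the mean. Identical copies averaged 15.8 CPM in F133V and 0.645 CPM in vector monoculture with DMSO, and relatives of 65% to under 85% identity averaged 5.70 and 6.88 CPM.

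Gm22063, in an intron of Cbfb, is 99.1% identical to Rnu6. It had 10.8, 19.3 and 9.67 CPM in F133V monoculture with DMSO, against 0.506, 0.356 and 0.492 CPM in vector monoculture (4.97 ± 0.25, adjusted p = 6.27e-20). These F133V values are part of the sum at 95% to under 100% identity, which was 21.6, 32.5 and 28.9 CPM there. In coculture with DMSO Gm22063 had 11.7, 11.8 and 14.3 CPM in F133V cells, against 1.09, 0.597 and 0.466 CPM in vector cells (4.36 ± 0.23). All F133V libraries were above all vector libraries. Its host Cbfb stood at -0.19 in monoculture and was not called in coculture. Gm24018 and Gm26328, outside other genes, had near-zero counts in vector cells. Gm24018 had 67, 86 and 62 counts in F133V monoculture and 1, 0 and 0 in vector monoculture with DMSO, and Gm26328 had 55, 58 and 52 counts and 0, 0 and 1. Gm25541, an snRNA gene with no named relative, had 47, 57 and 44 counts in F133V and 0, 0 and 1 in vector monoculture. Gm24018, Gm26328 and Gm25541 thus became members through other groups than vector monoculture with DMSO. The choice of members favoured these differences. In contrast Gm25047, a relative of 78.5% identity to Rnu6 that lies outside other genes, had 2.92, 2.93 and 3.66 CPM in F133V and 3.09, 3.84 and 5.49 CPM in vector monoculture, which overlap and were not called. Its level per kilobase was 40.4 CPM in cancer cells and 39.7 CPM in macrophages. Gm25047 is part of the sum at 65% to under 85% identity. That sum was 5.61, 5.09 and 6.42 CPM in F133V and 5.14, 6.71 and 8.77 CPM in vector monoculture with DMSO.

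Other spliceosomal RNAs also differed. Rnu11, the U11 snRNA that recognises the 5′ splice site of minor introns, is printed because it was the one minor spliceosomal snRNA among the members. Capitals mark letters of an Sm site, where the Sm protein ring binds in mature snRNAs.
Rnu11, chr4:132270080-132270213, minus strand: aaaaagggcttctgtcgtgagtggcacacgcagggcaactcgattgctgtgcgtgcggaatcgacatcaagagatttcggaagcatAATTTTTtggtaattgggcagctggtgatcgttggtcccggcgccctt
Rnu11 had 29, 34 and 25 counts in F133V monoculture with DMSO, against 4, 1 and 2 counts in vector monoculture (3.74 ± 0.51, adjusted p = 3.01e-08). In coculture it had 37, 65 and 23 counts in F133V cells and 3, 3 and 2 in vector cells (4.15 ± 0.47). It overlaps an exon of Gm28872 on the opposite strand. Rnu11 reached 10 counts in F133V libraries only, so the choice of members favoured its differences here and below, which are descriptions. Gm25939, 98.4% identical to Rnu2-10, a U2 snRNA that pairs with the branch point, had 1.56, 2.37 and 2.03 CPM in F133V and 0.267, 0.229 and 0.355 CPM in vector monoculture (2.90 ± 0.27, adjusted p = 2.37e-12), while its host D230017M19Rik was lower at -0.78. The 24 listed U2 relatives summed to 3.65 ± 0.549 CPM in F133V and 1.10 ± 0.056 CPM in vector monoculture, a ratio of 3.31. The 107 listed U1 relatives summed to 4.14 ± 0.107 and 2.99 ± 0.184 CPM, a ratio of 1.38. The 15 listed 7SK relatives other than Rn7sk, of biotype misc_RNA, summed to 4.90 ± 1.17 CPM in F133V and 0.281 ± 0.031 CPM in vector monoculture, a ratio of 17.4. Several well-known RNAs of these families were listed with too few counts to be members: no library held more than 8 counts of Rnu12, 10 of Rny1, 4 of Rny3 or 3 of Rn7s1 and Rn7s2.

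Scarna2, which guides modification of U2 and lies outside other genes on chromosome 3, had 6.61, 5.57 and 6.21 CPM in F133V monoculture with DMSO, against 0.720, 0.280 and 0.410 CPM in vector monoculture (3.79 ± 0.20, adjusted p = 2.62e-19). Under DMSO in coculture it had 4.68, 4.90 and 3.82 CPM in F133V cells, against 0.932, 0.764 and 0.699 CPM in vector cells (2.74 ± 0.19). Gm22009, a scaRNA gene in an intron of Kpna4, had 2.63, 2.47 and 2.38 CPM in F133V and 1.63, 1.40 and 1.75 CPM in vector monoculture (0.74 ± 0.16, adjusted p = 0.00013), beside a host change of 0.76. Both were higher in every F133V library. Scarna6, Scarna13, Scarna17 and Gm26347 were not called in that comparison. Vaultrc5, the vault RNA of biotype misc_RNA, had 69, 95 and 68 counts in F133V and 0, 7 and 5 in vector monoculture (4.39 ± 0.35, adjusted p = 4.57e-14). Vaultrc5 did not reach 10 counts in every cancer group, so the choice of members may have favoured its difference. Gm23833, a misc_RNA gene in an intron of Airn, went the other way with 0.620, 0.661 and 0.610 CPM in F133V and 1.97, 2.39 and 2.24 CPM in vector monoculture (-1.71 ± 0.24, adjusted p = 5.14e-08).

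**Figure D3:**
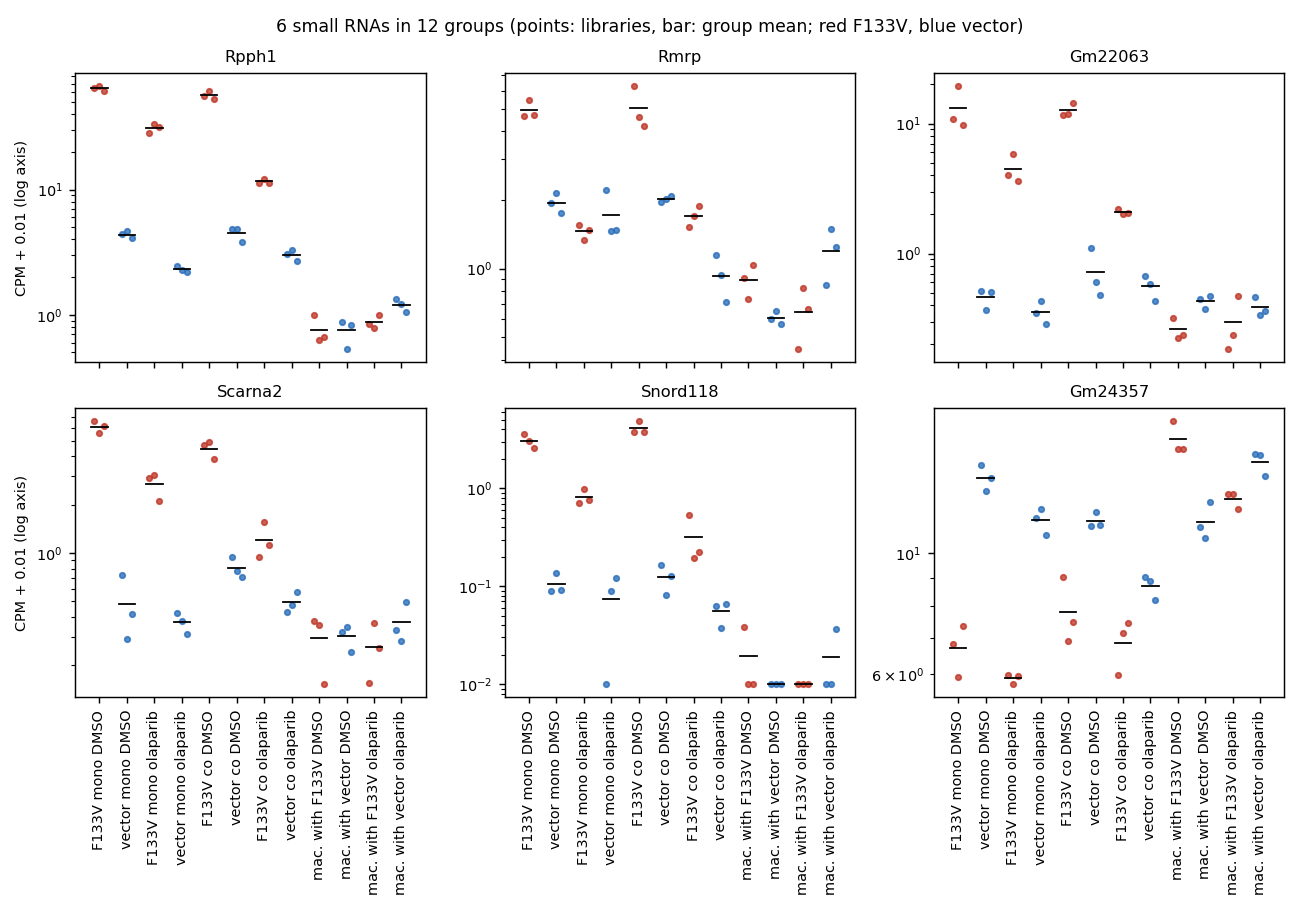
CPM of 6 members (vertical axis, log scale, with a small constant added so that zeros can be drawn) in the 12 groups (horizontal axis), with 1 point per library and a bar at the mean, F133V in red and vector in blue. Rpph1, Rmrp, Gm22063, Scarna2 and Snord118 stood higher in F133V than in vector monoculture with DMSO, and Gm24357 stood lower, at 5.93 to 7.35 CPM against 13.0 to 14.5 CPM.

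Among snoRNAs, Snord118, the U8 snoRNA needed for maturation of the large-subunit rRNAs, lies outside other genes on chromosome 11 and has its own promoter. It is printed as a snoRNA of its own transcription unit, with the first TGATGA and the last CTGA in capitals, the letters of boxes C and D. Gm24357 and Gm23455, from Taf1d, are printed as host-derived snoRNAs that fell. Both are annotated over an exon of Taf1d on the same strand. How many of their reads here and below came from that exon, or were left out as ambiguous, is not known. In Gm24357 capitals mark the same boxes and in Gm23455 the ACA that lies 3 bases before the end of box H/ACA RNAs.
Snord118, chr11:69073427-69073561, plus strand: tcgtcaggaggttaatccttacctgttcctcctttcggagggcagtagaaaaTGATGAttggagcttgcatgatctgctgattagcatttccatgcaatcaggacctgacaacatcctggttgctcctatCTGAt
Gm24357, chr9:15315522-15315595, plus strand: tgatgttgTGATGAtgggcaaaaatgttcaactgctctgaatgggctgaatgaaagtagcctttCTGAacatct
Gm23455, chr9:15316489-15316588, plus strand: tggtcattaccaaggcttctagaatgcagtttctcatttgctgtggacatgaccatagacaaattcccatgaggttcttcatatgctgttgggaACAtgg
Over the 150 snoRNA members, 41 held TGATGA near their start and CTGA near their end, and 81 held an ACA near the end, as letters only. Letters elsewhere were not counted, so Snord118, whose TGATGA lies further in, is not among the 41.

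Snord118 had 3.54, 3.03 and 2.56 CPM in F133V monoculture with DMSO, against 0.0799, 0.127 and 0.0820 CPM in vector monoculture (5.01 ± 0.33, adjusted p = 2.23e-16). Under DMSO in coculture it had 3.74, 4.83 and 3.73 CPM in F133V cells, against 0.155, 0.0716 and 0.117 CPM in vector cells (5.39 ± 0.31). Snord118 reached 10 counts in F133V libraries only, so the choice of members favoured its differences here and below, which are descriptions. Gm24357 fell, with 6.82, 5.93 and 7.35 CPM in F133V and 14.5, 13.0 and 13.7 CPM in vector monoculture (-0.95 ± 0.09, adjusted p = 1.9e-12). Gm23455 fell too, with 5.75, 6.13 and 4.70 CPM in F133V and 13.5, 14.3 and 13.5 CPM in vector monoculture (-1.22 ± 0.09, adjusted p = 3.39e-15). Their host Taf1d, a subunit of the RNA polymerase I factor SL1, was higher at 0.17. Gm22579, also over an exon of Taf1d, stood at -0.75 ± 0.18. Snora73b, in an intron of Rcc1 and known as U17, which acts in 18S rRNA processing, had 1.77, 1.27 and 2.18 CPM in F133V and 3.04, 2.95 and 2.43 CPM in vector monoculture (-0.61 ± 0.19, adjusted p = 0.00409). Snord22 and Snora28 were not called, at 4.48 to 5.24 CPM against 3.87 to 5.08 CPM and at 2.24 to 2.67 CPM against 1.94 to 2.36 CPM.

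Member and host were compared in 177 pairs on the same strand, and the host genes named here were chosen after their values were seen. Between F133V and vector monoculture under DMSO, 17 members rose with a host that rose, 9 rose where the host fell and 6 where the host was not called. Over all 177 pairs the host was higher in 54.8% and lower in 32.2%. Of 18 members that fell, 12 had a host that fell and 6 a host that rose. Those 6 all overlap an exon of the host, and for members in an intron the counts were 11 and 0. Gm24616, over an exon of the translation factor gene Eif4a2, had 3.48, 3.76 and 3.25 CPM in F133V and 0.186, 0.153 and 0.300 CPM in vector monoculture (4.12 ± 0.23), and Eif4a2 stood at 0.25. Snora20 stood at 4.04 ± 0.55 and its host Tcp1, a chaperonin subunit, at -0.54. Neither Gm24616 nor Snora20 reached 10 counts in every cancer group, so the choice of members may have favoured these differences. Snora30 stood at 1.81 ± 0.20 and its host Srcap, a chromatin remodeller, was not called. Across the pairs Pearson's r of the log2 fold changes of member and host was 0.216, a description over genes that share libraries and hosts.

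The same comparison was made in coculture with DMSO. Of the 244 members 124 were called higher and 13 lower in F133V cells, where 37.4% and 42% of all genes were called (79.5% in either direction). The median was 0.72 for the members and -0.06 for all genes. Of the 91 members with 10 counts in a library of every group 43 were higher and 5 lower (median 0.51), among them 30 and 3 of 65 snoRNAs. The summed snoRNA members stood at 149 ± 2.6 CPM in F133V and 106 ± 2.08 CPM in vector coculture, with no overlap. Snora2b, a box H/ACA RNA over an exon of Kansl2, had 3.84, 3.74 and 3.58 CPM in F133V and 0.596, 0.334 and 0.379 CPM in vector coculture (3.34 ± 0.23, adjusted p = 2.47e-16). Snora34, in an intron of Kansl2, stood at 3.28 ± 0.36, and Kansl2, a subunit of an acetyltransferase complex, rose by 2.25. Snora34 did not reach 10 counts in every cancer group, so the choice of members may have favoured its difference. Snora17 had 5.11, 6.35 and 5.15 CPM in F133V and 1.89, 1.96 and 1.69 CPM in vector coculture (1.84 ± 0.15). Gm24339, in an intron of Cep295, had 1.73, 2.33 and 2.25 CPM in F133V and 0.104, 0.286 and 0.320 CPM in vector coculture (3.39 ± 0.27), while Cep295 was not called. Gm24357 and Gm23455 remained lower at -0.30 ± 0.09 and -0.45 ± 0.09, and Taf1d rose by 1.02. In this comparison 54 members rose with a host that rose, 8 rose where the host fell and 6 where it was not called, and over all 177 pairs the host was higher in 74.6%. Gm22003, 99.1% identical to Rnu6, stood at 7.66 ± 0.89, and its counts in the 3 F133V libraries were 277, 134 and 6. It reached 10 counts in only 3 of all libraries, so the choice of members favoured this difference.

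Whether coculture changed F133V and vector cells differently was tested with an interaction, the log2 change with coculture in F133V cells minus that in vector cells. With DMSO, 62 members were called higher and 9 lower in F133V coculture than in F133V monoculture (35.6% and 34.8% of all genes, 70.3% in either direction). Scaled by library size alone, these counts were 47 and 16. In vector cells 5 were higher and 7 lower (23.4% and 18.6% of all genes), or 3 and 9 by library size alone. No share of all genes is given for library size alone, so counts from it describe only the dependence on the processing. The interaction was called positive for 40 members and negative for 5 (30.2% and 32.5% of all genes, 62.7% in either direction). Of the 40, 28 were snoRNAs, beside 150 of all 277 members. Snora2b had an interaction of 2.40 ± 0.36: it had 3.58 to 3.84 CPM in F133V coculture and 0.992 to 1.18 CPM in F133V monoculture. Snord104 had an interaction of 1.08 ± 0.16, with 5.31 to 5.95 CPM in F133V coculture and 3.51 to 3.95 CPM in F133V monoculture, and 3.11 to 3.38 against 3.72 to 4.14 CPM in vector cells. Snora68 had 1.70 ± 0.31 and Gm23455 0.78 ± 0.12. Gm24018 had an interaction of -3.16 ± 0.99, from counts of 5, 3 and 3 in vector coculture and 1, 0 and 0 in vector monoculture. Rpph1 and Rmrp were not called between coculture and monoculture with DMSO in either line. With olaparib 15 members were higher and 34 lower in F133V coculture than in F133V monoculture (26.7% and 26.5% of all genes). In vector cells with olaparib 3 were higher and 12 lower (25.5% and 18.5% of all genes).

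Olaparib was compared with DMSO within each line. In F133V monoculture 2 members were called higher and 57 lower with olaparib, where 18.2% and 17.9% of all genes were called. In F133V coculture 15 were higher and 120 lower (39.3% and 37% of all genes, 76.3% in either direction, median -0.70 for the members and 0.03 for all genes). In vector monoculture 0 were higher and 6 lower by edgeR (15.3% and 15.1% of all genes, 30.4% in either direction), and in vector coculture 0 higher and 8 lower (12.6% and 10.9% of all genes). By DESeq2 the vector counts were 2 and 4, all lower. At an unadjusted p under 0.05, edgeR had 4 higher and 14 lower in vector monoculture and 0 higher and 20 lower in vector coculture. No share of all genes is given for either setting, so these counts describe only the dependence on the processing. All 277 members comprised 150 snoRNAs, 77 snRNAs, 35 misc_RNA genes, 12 scaRNAs and 3 ribozymes. Of the 120 that fell in F133V coculture, 61 were snoRNAs, 38 snRNAs, 11 misc_RNA genes, 7 scaRNAs and 3 ribozymes. These counts also hold the 54 members that reached 10 counts in F133V but in no vector library. Of the 91 members with 10 counts in a library of every group, 40 fell and 5 rose (median -0.45). Among these, 8 of 15 outside other genes fell (median -0.38) and 16 of 51 in same-strand introns fell (median -0.40). Olaparib left summed ribozymes at 0.472 of DMSO in F133V monoculture, 0.217 in F133V coculture, 0.644 in vector monoculture and 0.616 in vector coculture.

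Rpph1 had 28.1, 33.5 and 31.6 CPM in F133V monoculture with olaparib (-1.12 ± 0.05 against DMSO, adjusted p = 1.93e-19) and 11.3, 12.2 and 11.3 CPM in F133V coculture with olaparib (-2.49 ± 0.06, adjusted p = 1.19e-30). In vector cells it had 2.46, 2.26 and 2.17 CPM in monoculture with olaparib (-0.90 ± 0.13, adjusted p = 6.71e-07) and 3.05, 3.27 and 2.67 CPM in coculture (-0.59 ± 0.12, adjusted p = 0.000305). Rpph1 was thus lower with olaparib in all 4 settings without overlap, by the most in F133V coculture. The interaction of genotype and olaparib was called in coculture, at -1.90 ± 0.14 (adjusted p = 1.17e-14), and not in monoculture. Rmrp showed the interaction in monoculture: it had 1.54, 1.32 and 1.47 CPM with olaparib in F133V cells (-1.85 ± 0.17, adjusted p = 1.04e-11), against the 4.63 to 5.47 CPM with DMSO. In vector monoculture it had 2.20, 1.45 and 1.47 CPM with olaparib and 1.75 to 2.14 CPM with DMSO, which overlap (interaction -1.69 ± 0.25, adjusted p = 1.47e-06). With olaparib Rmrp was not called between F133V and vector monoculture. Rpph1 remained higher in F133V cells with olaparib, by 3.74 ± 0.09 in monoculture and 2.00 ± 0.10 in coculture.

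Other members fell with olaparib in F133V cells as follows. Gm22063 had 4.03, 5.78 and 3.62 CPM in F133V monoculture (-1.65 ± 0.17) and 2.19, 2.00 and 2.03 CPM in F133V coculture (-2.80 ± 0.19, adjusted p = 1.29e-16). U6 copies identical to Rnu6 summed to 0.463 of the DMSO level in F133V monoculture and 0.156 in F133V coculture, and those of 95% to under 100% identity to 0.357 and 0.167. Relatives of 65% to under 85% identity stood at 1.43 and 1.33 of the DMSO level. Snord118 had 0.700, 0.984 and 0.749 CPM in F133V monoculture (-1.98 ± 0.23) and 0.529, 0.186 and 0.213 CPM in F133V coculture (-3.95 ± 0.25, adjusted p = 3.67e-17). Rnu11 had 5, 1 and 1 counts in F133V coculture with olaparib, against 37, 65 and 23 with DMSO (-4.40 ± 0.48, adjusted p = 1.09e-10). Scarna2 had 0.932, 1.56 and 1.11 CPM in F133V coculture with olaparib, against 4.68, 4.90 and 3.82 CPM with DMSO (-2.10 ± 0.17). Snora2b had 0.428, 0.534 and 0.331 CPM with olaparib there (-3.30 ± 0.23), and its host Kansl2 fell by 2.03. In F133V coculture 57 members fell with a host that fell, 6 fell where the host rose and 4 where it was not called, and over all 177 pairs the host fell in 74.6%. Gm25047 rose with olaparib to 5.55, 3.75 and 5.80 CPM in F133V monoculture (0.60 ± 0.17, adjusted p = 0.00594), and Gm26407, in an intron of Impact, rose to 1.39, 1.07 and 0.923 CPM in F133V coculture, against 0.356, 0.595 and 0.493 CPM with DMSO (1.00 ± 0.29).

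With olaparib in both lines, 61 members were higher and 28 lower in F133V than in vector monoculture (34.3% and 33.2% of all genes), and 40 were higher and 9 lower in coculture (28.8% and 31.2% of all genes, 60% in either direction). The genotype and olaparib interaction was called for 1 member upward and 7 downward in monoculture (13.3% and 10.9% of all genes), and for 13 upward and 62 downward in coculture (35.4% and 32% of all genes). In coculture it was -3.47 ± 0.40 for Snora2b, -2.50 ± 0.32 for Snora30 and -1.89 ± 0.23 for Snora17. Whether olaparib changed F133V cells more in coculture than in monoculture was tested likewise: 5 members were called upward and 59 downward (32.9% and 31.5% of all genes). Rpph1 stood at -1.37 ± 0.08 in that test, Snora2b at -2.81 ± 0.35, Gm24616 at -1.90 ± 0.24 and Rnu11 at -3.30 ± 0.66. Gm26917, Rn7sk and mt-Rnr2 were also called downward in it, at -1.58 ± 0.06, -1.80 ± 0.06 and -1.41 ± 0.07.

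The proteins that carry or make these RNAs were followed in lists drawn up by pathway, beside 33.7% of all genes higher and 34% lower in monoculture, and 37.4% and 42% in coculture. Between F133V and vector monoculture under DMSO, 7 of 11 RNase P and RNase MRP proteins rose and 3 fell (median 0.33). Rpp30 stood at 16.2 CPM in F133V and 9.48 CPM in vector cells (0.87 ± 0.08) and Pop1 at 33.5 and 42.9 CPM (-0.26 ± 0.04). In coculture with DMSO 2 of these 11 rose and 6 fell (median -0.20), although Rpph1 stood 3.90 higher on the log2 scale. All 8 tested proteins of the signal recognition particle rose in monoculture, among them Srp9 (0.59 ± 0.03). Of 21 genes of RNA polymerase III and its factors, 9 rose and 6 fell. The polymerase subunit Polr3a stood at 84.9 CPM in F133V and 59.5 CPM in vector cells (0.60 ± 0.03), and Polr3g at 5.24 and 17.0 CPM (-1.61 ± 0.08). Of 19 genes of SNAPc and Integrator, which start and end snRNA transcription, 8 rose and 9 fell. Of 18 genes of the nuclear exosome and 3′ trimming, 9 rose and 2 fell. Of 11 snoRNA host transcripts without protein, 5 rose and 4 fell, with Snhg6 at 0.61 ± 0.04 and Snhg3 at -0.78 ± 0.08.

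With olaparib in F133V coculture, of 7 box H/ACA snoRNP proteins 6 fell and 0 rose (median -0.67). Dkc1, the pseudouridine synthase, stood at 51.3 CPM with olaparib and 84.2 CPM with DMSO (-0.92 ± 0.03). Of 9 box C/D proteins 6 fell and 2 rose, with the scaffold protein Nop58 at 161 and 246 CPM (-0.82 ± 0.03). Of 11 snoRNA host transcripts 10 fell and 1 rose, with Snhg12 at 37.4 CPM with olaparib and 79.3 CPM with DMSO (-1.29 ± 0.03). Of 15 genes of Cajal bodies and snRNP assembly 11 fell and 2 rose. Of 19 genes of SNAPc and Integrator 12 fell and 5 rose, with Ints6 at 81.2 and 174 CPM (-1.30 ± 0.03). RNase P and RNase MRP proteins were mixed, with 5 higher and 3 lower of 11. Of 8 proteins of the signal recognition particle 3 rose and 2 fell, of 21 genes of RNA polymerase III 9 rose and 12 fell, and of 18 exosome genes 5 rose and 11 fell. Over all genes 39.3% rose and 37% fell.

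In macrophages the members were compared between partners. With DMSO, 16 of 159 members were higher and 8 lower in macrophages with an F133V partner than with a vector partner (25.5% and 28.1% of all genes). Of the 16, 14 were snoRNAs. Of all 277 members 150 were snoRNAs, and so were 90 of the 136 tested in macrophages beside a same-strand host. Summed snoRNA members stood at 115 ± 0.508 CPM with the F133V partner and 93.6 ± 0.514 CPM with the vector partner. With olaparib 2 were higher and 11 lower (17.6% of all genes each way), and the sums were 90.7 ± 2.33 and 100 ± 1.21 CPM. The interaction of partner and olaparib was called upward for 5 members and downward for 16 (25.7% and 23.7% of all genes). In the macrophages olaparib went with 10 higher and 21 lower members opposite F133V cells (28.5% and 29% of all genes), and with 9 higher and 1 lower opposite vector cells (14% and 14.5% of all genes). By DESeq2, for which no share of all genes is given, 13 members were called between partners with DMSO and 8 with olaparib.

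Gm22009, the scaRNA in Kpna4, had 5.51, 4.15 and 4.90 CPM with the F133V partner and 2.68, 2.45 and 2.74 CPM with the vector partner under DMSO (0.84 ± 0.12, adjusted p = 7.9e-08). Under olaparib it had 3.27, 3.83 and 3.30 CPM with the F133V partner and 7.72, 6.86 and 6.71 CPM with the vector partner (-1.10 ± 0.11, adjusted p = 3.25e-12). The partners thus changed order with the drug, with no overlap either time, and the interaction was -1.94 ± 0.16 (adjusted p = 1.16e-14). Its host Kpna4, a nuclear import receptor, stood at -0.16 under DMSO and was not called under olaparib. Gm24339, the snoRNA in Cep295, had 1.80, 2.09 and 1.74 CPM with the F133V partner and 0.903, 0.490 and 0.561 CPM with the vector partner under DMSO (1.47 ± 0.23). Under olaparib it had 0.983, 0.973 and 1.53 CPM with the F133V partner and 2.20, 1.91 and 2.84 CPM with the vector partner (-1.04 ± 0.19), an interaction of -2.51 ± 0.30. Gm24357 stood at 15.5 to 17.4 CPM with the F133V partner and 10.7 to 12.4 CPM with the vector partner under DMSO, and at 12.1 to 12.8 and 13.8 to 15.2 CPM under olaparib (interaction -0.74 ± 0.09). Gm23455 stood at 18.0 to 18.8 CPM with the F133V partner and 13.2 to 13.8 CPM with the vector partner under DMSO, and at 12.1 to 14.2 and 16.5 to 17.0 CPM under olaparib (interaction -0.82 ± 0.08). Their host Taf1d stood at -0.16 under DMSO.

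Vis1 and Gm26143 moved in the opposite order and were nearly absent from cancer cells. Vis1, of biotype misc_RNA, had 1.57, 1.29 and 0.941 CPM with the F133V partner and 2.62, 2.45 and 2.64 CPM with the vector partner under DMSO (-1.07 ± 0.17, adjusted p = 5.58e-07), with an interaction of 1.33 ± 0.23. Gm26143, 73.1% identical to Rnu6, had 36 counts in each library with the F133V partner and 71, 54 and 62 with the vector partner under DMSO (-1.02 ± 0.20), and 0 counts in every cancer library. Rmrp had an interaction of -1.47 ± 0.38 in macrophages, at 0.434, 0.811 and 0.655 CPM with the F133V partner and 0.834, 1.48 and 1.23 CPM with the vector partner under olaparib. Rpph1, at 0.520 to 1.32 CPM in macrophages, was not called between partners. Rn7sk changed order with the drug as well: it stood at 5.79 ± 0.621 CPM with the F133V partner and 1.70 ± 0.258 CPM with the vector partner under DMSO, and at 2.27 ± 0.268 and 3.66 ± 0.523 CPM under olaparib. The rRNA mt-Rnr2 did the same, at 533 ± 28 and 357 ± 11.8 CPM under DMSO and 370 ± 5.84 and 489 ± 18.6 CPM under olaparib. Gm26917 was not called between partners under DMSO. The part of these RNAs in the macrophage differences was not tested. No macrophages grown alone were analysed here, so each difference is between 2 cocultures.

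**Figure D4:**
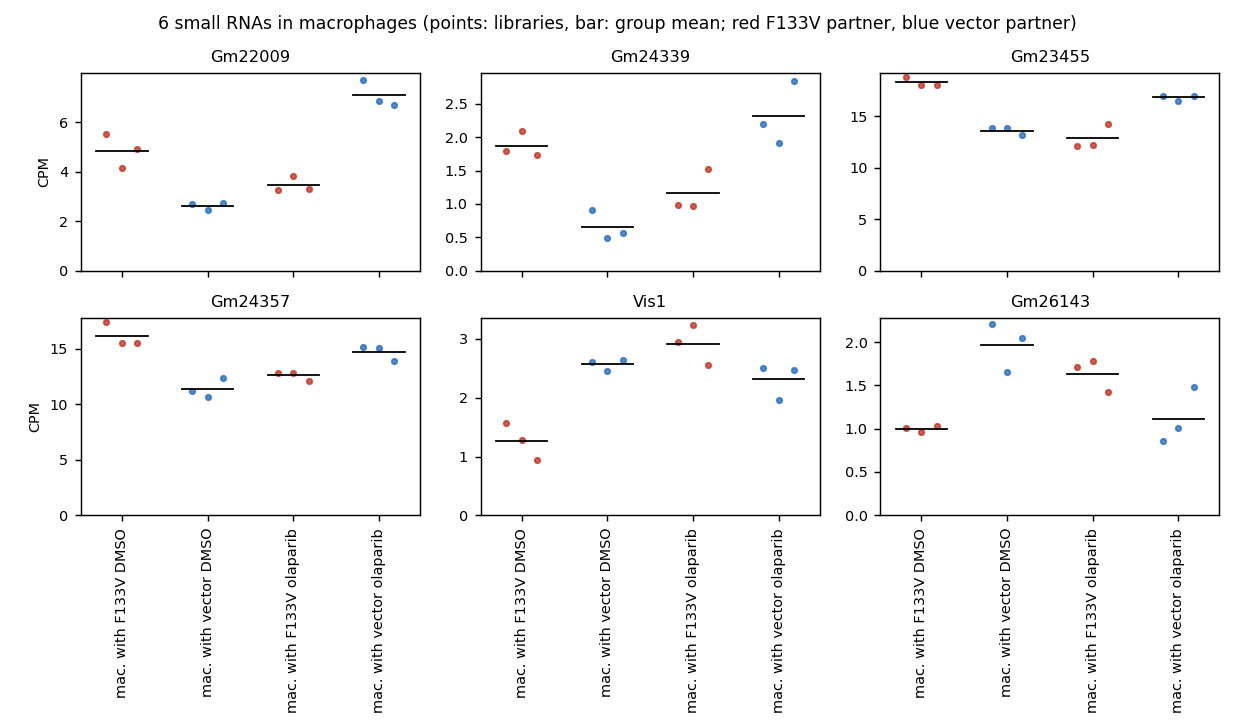
CPM of 6 members (vertical axis, from 0) in the 4 macrophage groups (horizontal axis), with 1 point per library and a bar at the mean. Gm22009, Gm24339, Gm23455 and Gm24357 were higher with the F133V partner under DMSO and lower with it under olaparib, and Vis1 and Gm26143 were lower with the F133V partner under DMSO.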

How the data were processed

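RNA from 36 libraries in 12 groups of 3 was analysed from gene tables. The authors deposited whole-number counts per gene, with a biotype per gene. The submitters' processing notes name GRCm38, STAR, TopHat, HTSeq and DESeq2 without versions. Uniquely aligned reads were counted, as far as the summary lines of the deposited count files show: 5.48% to 7.18% of reads were not unique, 17.1% to 21.5% fell in no feature and 1.2% to 1.36% were ambiguous. These summary lines were left out of totals and tests. TRIzol RNA was used, per the labels' protocols.

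The 277 members and all lists were chosen with earlier results of these data known. Counts were fitted with edgeR 4.0.16 (TMM, low-count filter at 10, quasi-likelihood F test, two-sided) in R 4.3.3, separately for 24 cancer and 12 macrophage libraries. P-values were Benjamini-Hochberg adjusted over all genes at 0.05, and the SE is the fold change over the root of F. Printed CPM are not TMM-scaled. The fits were tested on simulated data. DESeq2 1.42.0, other scalings, filters and left-out libraries were alternatives. The shares of all genes belong to the edgeR fit with TMM on all libraries of a cell type. None is given for the alternatives. Groups came from the labels, and for 3 macrophage libraries whose titles omit the partner from another label entry.

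Coordinates and sequences come from GENCODE M21 (GRCm38), in which 277 of 277 member IDs matched, and from RefSeq promoter windows (GRCm38.p6). Families were assigned with blastn 2.17.0 at 65% identity or more. Named members were a fixed set of well-known RNAs, the 6 highest per biotype, the 4 largest called rises and falls per comparison (at 1 CPM or more, without overlap), and the 4 smallest adjusted p per interaction and per list. Replicate numbers did not pair libraries. Sequences of some members are not reported here.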

Additional observations from a re-analysis of the deposited data

Results flagged for a closer look

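These members were singled out because an effect differed between groups by an interaction test (edgeR, adjusted over all genes, 3 libraries per group). In monoculture the olaparib effect was lower in F133V than in vector cells for Rmrp (-1.69 ± 0.25, adjusted p = 1.47e-06), Snora20 (-3.22 ± 0.89, adjusted p = 0.00609), Gm26448 (-1.59 ± 0.46, adjusted p = 0.00941) and Gm25939 (-1.42 ± 0.42, adjusted p = 0.0107). In coculture it was lower for Rpph1 (-1.9 ± 0.14), Snora2b (-3.47 ± 0.40), Snora17 (-1.89 ± 0.23) and Snora30 (-2.5 ± 0.32). Snora20 reached 10 counts in 8 libraries and not in every cancer group, so the choice of members may have favoured its difference.

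With DMSO, the coculture effect was higher in F133V than in vector cells for Snord104 (1.08 ± 0.16), Snora2b (2.4 ± 0.36), Gm23455 (0.78 ± 0.12) and Snora68 (1.7 ± 0.31). Within F133V cells the olaparib effect was lower in coculture than in monoculture for Rpph1 (-1.37 ± 0.08), Snora2b (-2.81 ± 0.35), Gm24616 (-1.9 ± 0.24) and Snora17 (-1.4 ± 0.23). Gm24616 did not reach 10 counts in every cancer group, so the choice of members may have favoured its difference. In macrophages the olaparib effect was lower with the F133V partner than with the vector partner for Gm22009 (-1.94 ± 0.16), Gm23455 (-0.82 ± 0.08), Gm24339 (-2.51 ± 0.30) and Gm24357 (-0.74 ± 0.09).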

How the results depend on the processing

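By DESeq2 the number of members called was 2 (6 by edgeR) for olaparib in vector monoculture, 4 (8) in vector coculture, 9 (15) for coculture of vector cells with olaparib, 28 (45) for the genotype and coculture interaction, and in macrophages 13 (24) and 8 (13) between partners under DMSO and olaparib, and 19 (31) for olaparib with the F133V partner. Fitting only the groups compared gave 50 (89) and 31 (49) members between F133V and vector cells under olaparib in monoculture and coculture, and 29 (49) for coculture of F133V cells with olaparib. Without the 2 vector monoculture libraries of highest Lyz2 there were 3 (6) for olaparib in vector monoculture and 5 (12) for coculture of vector cells with DMSO. Leaving out 1 library at a time gave 6 to 11 (12) members for coculture of vector cells with DMSO, 7 to 14 (8) for the genotype and olaparib interaction in monoculture, 9 to 11 (15) for coculture of vector cells with olaparib, and 5 to 8 (8) for olaparib in vector coculture. DESeq2 was fitted to the same libraries as edgeR. Fewer samples entered the fits of only the groups compared and those with libraries left out. No share of all genes is given for these settings, so the counts describe only the dependence on the processing. The cause of the changed counts was not tested.

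With members of 10 or more counts in all cancer libraries, the F133V to vector ratio in monoculture with DMSO was 10.977 for ribozymes, 2.312 for snRNAs (20.7 and 8.95 CPM, of which Gm22063 averaged 13.2 CPM in F133V and 0.451 CPM in vector cells), 2.527 for scaRNAs, 0.876 for snoRNAs and 0.827 for misc_RNA. For misc_RNA it was 0.859 in monoculture with olaparib and 0.973 in coculture with DMSO, and the olaparib ratio in F133V cells was 1.088 in monoculture and 1.161 in coculture. The snoRNA ratio was 0.989 in coculture with olaparib. Scaled to protein-coding counts the snoRNA ratio was 1.047 in monoculture with DMSO.

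With the replicate number as a block, all 21 counts stayed within 1.5 times, for example 76 against 71 for coculture of F133V cells with DMSO, and 5 calls of named members were lost. Correlations of same-numbered libraries had a median of 0.002 in cancer cells and 0.004 in macrophages. Library size alone in place of TMM moved the median of all genes by -0.311 between F133V and vector coculture with DMSO and by 0.231 for olaparib in F133V coculture. No call of a named member reversed. Depth limits members with a few counts per library, and multicopy families lose reads that align to several copies.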

Other observations

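In 6 snRNA members, 1 library held at least 80% of the counts of a group that summed to 30 or more, values chosen after they were seen. Gm25127 had 269 of its 294 counts in F133V monoculture with DMSO in replicate 2, and Gm24596 had 191 of 217 in the same library. Gm22798 had 47 of 47 counts in F133V coculture with olaparib in replicate 1, and Gm25448 had 75 of 79 in F133V coculture with DMSO in replicate 2. Gm24458 had 85 of 102 in F133V monoculture with olaparib in replicate 2, and Gm25405 had 33 of 36 in vector coculture with olaparib in replicate 2. Without F133V replicate 2, Gm24596 stood at 0.87 ± 0.59 between F133V and vector monoculture with DMSO (adjusted p = 0.197 by edgeR), against 3.20 ± 0.65 with all libraries.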
